A study of Arabidopsis thaliana with 12 samples.

Results

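Sucrose (Suc), given at 1 mM for 1 h, was compared with the control sugar xylose (Xyl), given at the same concentration for the same time. The comparison used 6 of the 12 arrays of the series, 3 with Suc and 3 with Xyl, taken by the sugar species in the sample labels and paired by the replicate number 1 to 3. All 4 groups of the series were *Arabidopsis thaliana* suspension cells that had grown in the dark for 7 d on 87 mM Xyl in a medium without hormones, before 1 mM Suc, fructose (Fru), glucose (Glc) or Xyl was added. The culture is habituated, that is, it divides without added hormones. It came from roots, and mixed cell solution was shared out to the flasks that were treated. It is 1 culture line in darkness and not a plant, so source leaves, phloem and light play no part in it. Of 35 marker genes for leaf cells, dividing cells, xylem vessels, root hairs and the root stem cell niche, 3 had a probe set with a name, which is too few to check the cell type. *TOPII*, a topoisomerase of dividing cells, stood at 6.09, 6.84 and 3.91 with Suc, against 6.44, 7.14 and 4.20 with Xyl (−0.31), lower with Suc in all 3 replicates without passing the threshold used below, and far lower in replicate 3 than in the others with both sugars. The root hair expansins *EXPA7* and *EXPA18* differed by 0.16 and −0.04. The part of dividing cells in the results was not tested.

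Suc is the sugar that most plants transport. Cells cleave it to Glc and Fru through invertases and Suc synthases, and they read their carbon status through the SnRK1 kinase, which is active in starvation, through the TOR kinase, which promotes growth when nutrients are at hand, and through trehalose-6-phosphate. When sugar returns to starved cells, transcripts that are raised by starvation decline within a short time. The question of the comparison was which transcripts respond within a short time to a low amount of Suc.

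Each array measured 22810 probe sets, which are groups of short probes near the 3′ end of a transcript, as log2 RMA values. A difference of 1 on this scale is a doubling. The 64 control probe sets of the manufacturer were left out, and the others were tested in limma with the replicate number as a block. A probe set is said to have passed where its unadjusted p was under the methods' threshold of 0.002, and adjusted p-values were taken over all probe sets tested by the Benjamini-Hochberg method. The array medians of Suc and Xyl lay between 4.72 and 4.83, and the median difference over all probe sets within a replicate lay between −0.0067 and 0.0078. Arrays carry no read depth, so 3 arrays per sugar limit the precision. An exact test of 3 against 3 that ignores the pairing cannot give a p under 0.1, and an exact test of the pairs has a higher floor. The poly-A control transcripts, bacterial RNAs on 24 probe sets, averaged 6.69, 6.88 and 8.04 with Suc, against 5.80, 6.45 and 7.47 with Xyl, and all 24 were higher with Suc in all 3 replicates. The 18 probe sets of the hybridization controls averaged 9.69 ± 0.21 with Suc and 9.79 ± 0.19 with Xyl (SD, n = 3 each).

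Between Suc and Xyl 242 probe sets passed, 1.06% of those tested. Of these, 65 (0.286%) were higher with Suc, and 177 (0.778%) were lower. All 242 differed in 1 direction in all 3 replicates, whereas over all probe sets 18.5% were higher and 19.4% lower in all 3. The test favours differences that are alike in the replicates, so this follows from the selection and is no separate evidence. The median size was a log2 difference of 0.52 among the higher and −0.51 among the lower, a change of 1.43-fold in both. The falls reached further, since 24 of them and 0 of the rises had a size of 1 or more, and the largest was 4.22-fold. After each array was centred on its median, 108 were higher and 128 lower, so that the excess of falls depends on the scaling. Without the block 15 probe sets passed, all of them lower with Suc. When 1 array was left out, 97, 143 and 99 passed without the Suc array of replicate 1, 2 and 3, and 147, 140 and 136 without the Xyl array.

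The platform's annotation named 1 gene for 134 of the 242 probe sets. Another 46 were named through the study's supplementary list of sugar-responsive genes, which was chosen on these same samples. Counts of genes named in that way are therefore no independent evidence of a direction, and they are kept apart in what follows. The last 62 had no single name. As a base for the counts that follow, 85 of all 13513 platform-named probe sets passed as lower and 49 as higher, and 43 of the 128 named through the supplementary list passed as lower and 3 as higher. The gene lists and their members were chosen with earlier results of these data known. A share of platform-named members above this base is therefore a description and no independent evidence either.

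An adjusted p under 0.05 was reached by 4 probe sets (0.0176%), each at 0.0451 in limma. *TPS8* (AT1G70290) encodes a class II trehalose-phosphate synthase, a family of regulatory proteins without clear enzyme activity. Its level was 5.49, 5.95 and 4.56 with Suc (replicates 1, 2 and 3), against 6.55, 7.00 and 6.03 with Xyl. The highest Suc array lay below the lowest Xyl array, and the log2 difference was −1.20 (standard error 0.16), or 2.29-fold. *NRPB1* (AT4G35800), the largest subunit of RNA polymerase II, stood at 5.30, 5.34 and 5.01 with Suc and at 6.29, 6.03 and 5.63 with Xyl (−0.76, standard error 0.10). *SWP* (AT3G04740), the Mediator subunit MED14, which links transcription factors to the polymerase, stood at 5.69, 5.91 and 5.82 with Suc and at 6.32, 6.71 and 6.59 with Xyl (−0.73, standard error 0.10). For neither gene did the arrays of the groups overlap. AT5G47060 was the only one of the 4 that was higher: its level was 9.31, 8.21 and 10.05 with Suc, against 8.36, 7.54 and 9.03 with Xyl. Within each replicate it rose by a similar amount (0.88, standard error 0.12), yet the groups overlapped, because the replicates differed more from one another than the sugars did. The adjusted calls were not robust to single arrays, since 0 probe sets had an adjusted p under 0.05 in limma when any 1 of the 6 arrays was left out or when the arrays were centred on their medians (2443 had an unadjusted p under 0.05 in the fit with all arrays). At an adjusted p under 0.1 there were 28.

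Genes that are known to be raised in carbon starvation were lower with Suc, and they include *TPS8*. Of the 26 starvation markers listed, 14 had a probe set with a name. All 5 that the platform names had lower means with Suc (median −0.63, against 0.01 over all platform-named probe sets), and 1 of the 5 passed, against 85 of 13513 platform-named probe sets. The other 9 are named by the supplementary list, and all 9 passed as lower, against 43 of the 128 probe sets that the list names. *BT5* (AT4G37610), a BTB and TAZ domain protein of the family of *BT2*, fell most: it stood at 5.07, 5.24 and 4.60 with Suc and at 6.47, 6.57 and 6.95 with Xyl (−1.70, standard error 0.30, 3.24-fold). *BMY3* (AT5G18670), also called *BAM9*, belongs to the β-amylase family. It stood at 4.53, 5.40 and 4.14 with Suc and at 5.71, 6.54 and 6.71 with Xyl (−1.63, standard error 0.34). In both genes the decline was larger in replicate 3 than in replicates 1 and 2.

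**Figure D1:**
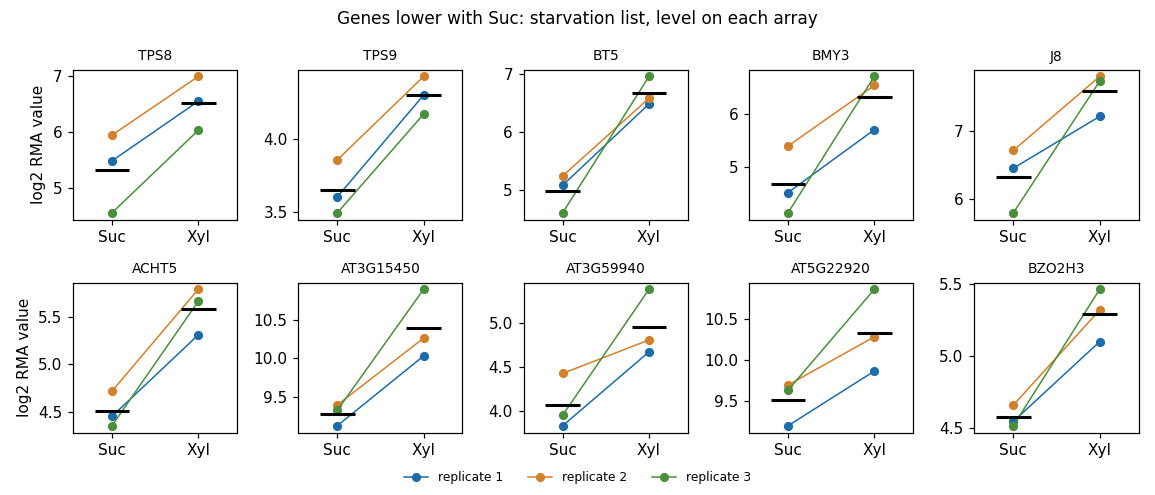
Level (log2 RMA value, y axis) of 10 genes of the starvation list on each Suc array (left) and each Xyl array (right), with lines that join the arrays of 1 replicate and black bars for the means of 3 arrays. Every line slopes the same way, with the Suc array lower in each replicate of each gene.

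AT3G15450, the member named by the platform that passed, stood at 9.13, 9.40 and 9.33 with Suc, against 10.03, 10.26 and 10.89 with Xyl (−1.11, standard error 0.28). *J8*, a DnaJ-domain protein of the chloroplast, fell by 1.26 on the log2 scale and *ACHT5*, an atypical thioredoxin, by 1.08. AT3G59940, the F-box protein KMD4, was 0.89 lower and AT5G22920, the RING zinc-finger protein RZPF34, 0.83 lower. *TPS9* (AT1G23870), the other class II synthase with a named probe set, stood at 3.60, 3.86 and 3.49 with Suc and at 4.30, 4.43 and 4.17 with Xyl (−0.65, standard error 0.13). None of these 6 genes, all of which had passed, overlapped between the groups. Of all 177 falls 92 had no overlap, and 3.26% of all probe sets had every Suc array below every Xyl array. Markers that did not pass were AT3G15630 with −0.63, *AKINBETA1* with −0.73, *ATL8* (AT1G76410) with −0.57 and AT1G18460 with −0.32. The plot of the starvation list shows the values of the genes that passed.

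*bZIP63* (AT5G28770, *BZO2H3* in the annotation), a leucine zipper factor of group C that SnRK1 phosphorylates, stood at 4.54, 4.66 and 4.51 with Suc, against 5.10, 5.32 and 5.46 with Xyl. It fell by 0.72 (standard error 0.12) on the log2 scale, with an adjusted p = 0.0941 in limma. Of its group S1 partners, *BZIP53* differed by −0.33 and *bZIP44* by 0.08, and neither passed. *TOR* (AT1G50030), the kinase itself, fell to 5.61, 6.18 and 5.99 with Suc, against 6.10, 6.68 and 6.60 with Xyl (−0.53, standard error 0.12). It was lower in all 3 replicates, although the groups overlapped. Both *TOR* and *bZIP63* are named by the supplementary list, so their falls are no independent evidence. Of the other 5 named members of the SnRK1 and TOR complexes 0 passed, a count near the share of 1.06% over all probe sets. Their largest difference was that of *AKINBETA1* (−0.73, standard error 0.21), a β subunit of SnRK1, while *RAPTOR1* and *RAPTOR2*, which bind TOR, differed by −0.30 and −0.32.

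Genes encoded in the plastid were a second group with lower levels. A plastid genome holds genes for photosynthesis and for its own transcription and translation. It is read by a plastid-encoded polymerase and by nuclear-encoded ones, and plastids of cells in the dark still keep ribosomes and fatty acid synthesis. Long poly(A) tails are rare on plastid transcripts, and the labelling kit copies RNA from such tails, so the level read for a plastid gene need not be its abundance. These genes were chosen as a group after their values were seen. Of the 15 largest falls among named genes, 8 were plastid-encoded.

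Of the 69 plastid-encoded genes with a probe set of their own, 52 had lower means with Suc, and the median difference was −0.38, against 0.01 for 13367 nuclear genes named by the platform. The threshold was passed by 11 of the 69 as lower (15.9%, against 0.778% of all probe sets) and by 0 as higher. In 34 of the 69 the highest Suc array lay below the lowest Xyl array, as in 3.26% of all probe sets, and 41 were lower in all 3 replicates. The medians within replicates 1, 2 and 3 were −0.29, −0.33 and −0.53. No plastid-encoded gene had an adjusted p under 0.05 in limma, and the lowest was 0.0941. The count of 11 was 4, 5 and 5 without the Suc array of replicate 1, 2 and 3, was 4 without the Xyl array of replicate 3, and was 5, 15 and 17 without the whole of replicate 1, 2 and 3. In RNA from a whole culture, less transcript per cell and fewer cells that hold it cannot be told apart. The poly-A controls were higher with Suc on the same arrays, by 0.90, 0.43 and 0.57 in replicates 1, 2 and 3, and their part in the result was not tested.

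**Figure D2:**
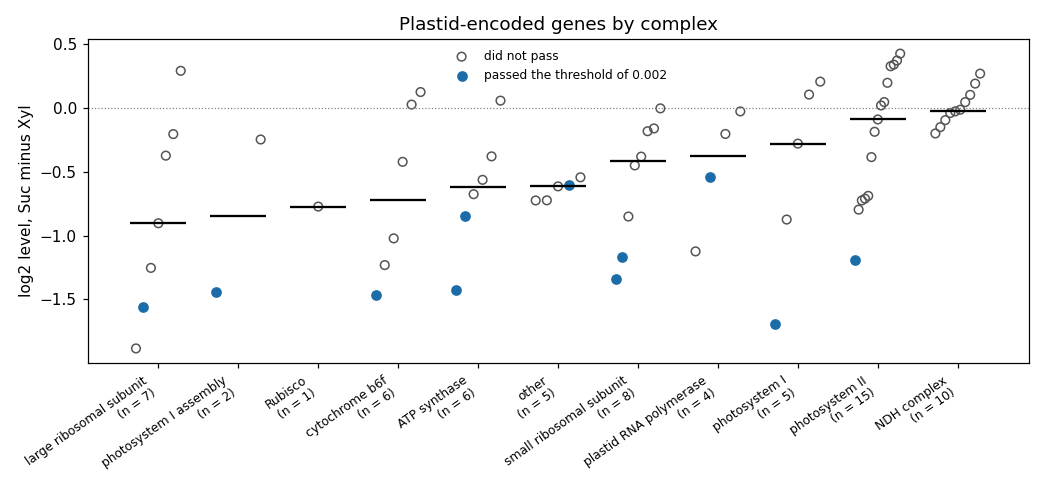
Log2 level with Suc minus Xyl (y axis) of each of the 69 plastid-encoded genes, grouped by complex, with n genes per group; filled points passed the threshold of 0.002 and black bars are group medians. The lowest medians were those of the large ribosomal subunit and the photosystem I assembly factors. The NDH complex, with a median Xyl level of only 3.18, lay near 0.

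The photosystem I core gene *psaB* stood at 4.47, 5.17 and 4.90 with Suc, against 6.50, 6.45 and 6.67 with Xyl. The gap of more than 1 log2 unit between the groups was larger than the spread within either, and the difference was −1.69 (standard error 0.32, 3.24-fold). *ycf3*, which encodes an assembly factor of photosystem I, stood at 4.28, 4.16 and 3.87 with Suc and at 5.49, 5.31 and 5.84 with Xyl (−1.44, standard error 0.27). Of the other photosystem I genes, *psaA*, the partner of *psaB* in the core, differed by 0.10, *psaJ* by 0.20, *psaC* by −0.28 and *psaI* by −0.87, and none passed. *petA*, cytochrome f of the cytochrome b6f complex, stood at 5.86, 5.80 and 5.52 with Suc, against 7.27, 6.95 and 7.35 with Xyl (−1.47, standard error 0.25). Its small subunits *petL* and *petG* differed by −1.23 and −1.02 without passing, and *petD* by 0.12.

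In the ATP synthase, *atpB*, the β subunit of the catalytic head, passed. Its level was 9.57, 9.67 and 9.29 with Suc and 10.45, 10.45 and 10.17 with Xyl (−0.84, standard error 0.17). *atpA*, the α subunit, stood at 2.90, 3.00 and 2.74 with Suc and at 5.02, 4.20 and 3.69 with Xyl (−1.42, standard error 0.32). Among the other 4 genes of the complex, *atpE*, *atpF* and *atpH* differed by −0.68, −0.56 and −0.38, and *atpI* by 0.06. *rbcL*, the large subunit of Rubisco, had means of 4.73 with Suc and 5.50 with Xyl (−0.77, standard error 0.25). It did not pass, although its arrays did not overlap.

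Of the 15 photosystem II genes 1 passed, *psbN*, whose product takes part in photosystem II assembly, with 4.09, 4.46 and 3.82 with Suc and 5.21, 4.98 and 5.76 with Xyl (−1.19, standard error 0.28). Lower means without a call were found for *psbC*, *psbI*, *psbK* and *psbZ* (−0.69 to −0.80). In contrast, *psbE* and *psbF*, the subunits of cytochrome b559, and *psbJ* had higher means with Suc (0.34, 0.37 and 0.42), and for *psbE* and *psbF* every Suc array lay above every Xyl array. None of these 3 passed. *psbA*, the D1 protein, differed by −0.39. The 10 genes of the NADH dehydrogenase-like (NDH) complex lay between −0.20 and 0.27 with a median of −0.02, and 0 passed. Their median level with Xyl was 3.18, against 5.39 for all 69 plastid-encoded genes and 4.83 for all probe sets. At so low a level a fall could hardly be seen.

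Most genes of plastid gene expression had lower means. All 8 genes of the small ribosomal subunit had lower means with Suc (median −0.42), and 2 of them passed. *rps4* stood at 8.12, 8.19 and 7.76 with Suc, against 9.03, 9.21 and 9.33 with Xyl (−1.17, standard error 0.26), and *rps19* at 7.35, 7.29 and 7.17 with Suc, against 8.36, 8.55 and 8.91 with Xyl (−1.34, standard error 0.34). In the large subunit 6 of 7 genes had lower means (median −0.90). *rpl20* passed (−1.56, standard error 0.40). *rpl16* had the largest difference of all 69 genes, with 4.94, 4.72 and 4.09 with Suc and 6.48, 6.36 and 6.56 with Xyl, but with a standard error of 0.52 its −1.88 missed the threshold. Of the plastid RNA polymerase, *rpoC2* passed (−0.54, standard error 0.12), and *rpoC1* (−1.12) and *rpoA* (−0.03) did not. The 5 remaining genes, among them *matK* for a maturase, *clpP* for a protease subunit, *accD* of fatty acid synthesis and *ccsA* of cytochrome maturation, all had lower means (−0.54 to −0.73), and the envelope protein gene *cemA* passed (−0.61, standard error 0.15). Another 8 probe sets are listed with several plastid entries each and were kept out of these counts. All 8 had lower means with Suc (−0.06 to −2.08), 3 passed, and the lowest of them was the largest fall on the arrays.

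The difference was larger where the level was higher. Among 44 plastid-encoded genes with a mean above 4 on the 6 arrays the median difference was −0.58 and 9 passed, and among the 25 at 4 or below it was −0.16 and 2 passed.

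The mitochondrial genome encodes subunits of respiration. Over 23 mitochondrial probe sets, taken by symbol for 16 genes, the median was −0.02 and 1 passed. That was *orfX*, with 4.27, 4.49 and 4.90 with Suc and 4.93, 5.05 and 5.91 with Xyl (−0.75, standard error 0.14). *ccb382*, of cytochrome c maturation, differed by −0.70 without passing, and *cox1* and *cox2*, of cytochrome oxidase, by −0.28 and 0.31. The count holds only probe sets with a mitochondrial symbol, so mitochondrial sequences under another name or none would be left out. AT2G07695, which was counted with the nuclear genes, passed as lower and was among the 15 largest falls (−1.255).

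The direct tests of Suc against the other sugars bear on the plastid-encoded genes as well. They share the 3 Suc arrays with the comparison against Xyl, so genes that were picked as low on those arrays are not tested anew, and the values are given side by side. With Suc, 18 of the 69 passed as lower than with Glc, against 0.365% of all probe sets, and 0 as higher. The median of Suc minus Glc was −0.35. Set against Xyl, whose arrays the 3 comparisons share, the median was −0.38 with Suc, −0.21 with Fru and 0.08 with Glc. For the large ribosomal subunit it was −0.90 with Suc, −0.97 with Fru and −0.19 with Glc. *psaB* had means of 4.85 with Suc and 6.57 with Glc (−1.73 for Suc minus Glc), *petA* 5.72 with Suc and 7.14 with Glc (−1.42) and *rbcL* 4.73 with Suc and 6.05 with Glc (−1.32). *atpA* had means of 2.88 with Suc and 3.34 with Glc (−0.45) and did not pass. The lowest adjusted p of a plastid-encoded gene between Suc and Glc was 0.123 in limma. Against Fru, 0 of the 69 passed (0.229% of all probe sets were lower with Suc than with Fru), and the median of Suc minus Fru was −0.16. The Fru arrays were far apart: *psaB* stood at 5.67, 6.72 and 4.55 on those of replicates 1, 2 and 3, so that replicate 2 lay with Glc and replicate 3 with Suc.

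**Figure D3:**
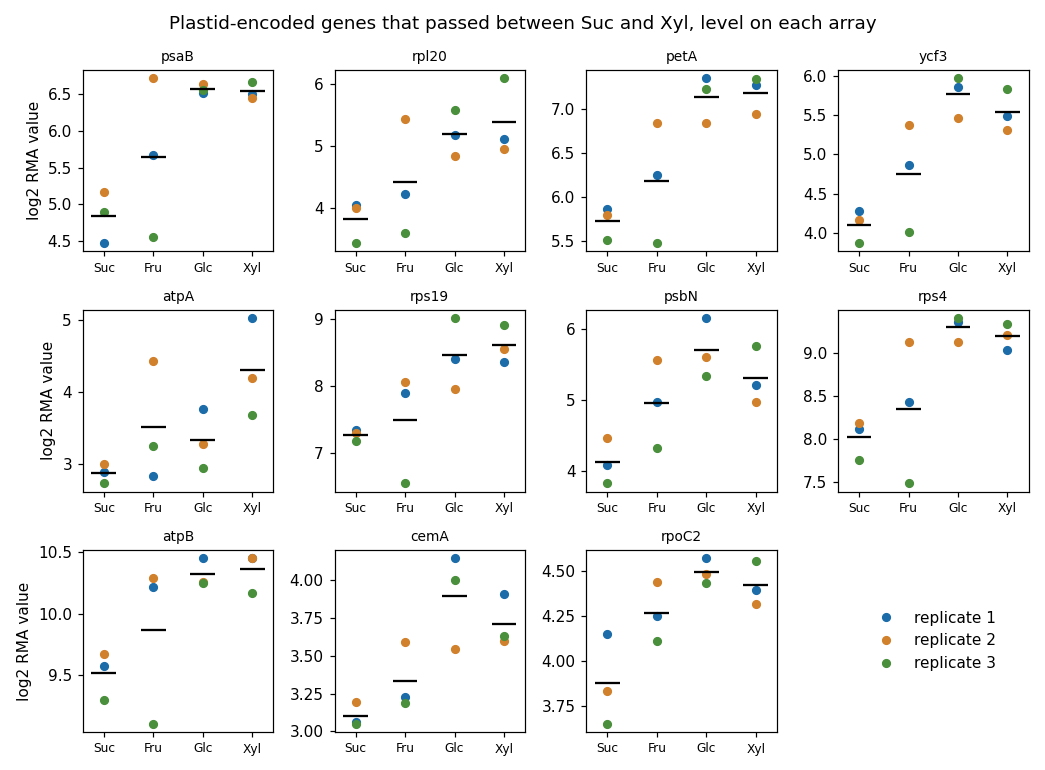
Level (log2 RMA value, y axis) of the 11 plastid-encoded genes that passed between Suc and Xyl, on each array with Suc, Fru, Glc and Xyl; points are arrays, coloured by replicate, and black bars are means of 3 arrays. The Suc arrays lie below the Xyl arrays in each gene, and in *psaB* the Fru arrays lie far apart, from near the Suc level to near the Glc level.

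Some nuclear genes of transcription and chromatin also fell. Among RNA polymerase II, Mediator and their partners, 10 of 28 listed genes had a named probe set. Of 6 named by the platform 1 passed as lower, AT1G23230 (−0.37, standard error 0.09). Of 4 from the supplementary list 3 passed as lower, *NRPB1*, *SWP* and *DCP1* (−0.49), a subunit of the mRNA decapping complex. The bases are 85 of 13513 and 43 of 128 lower. *SPT16*, a histone chaperone of elongating polymerase, differed by −0.38. Among chromatin factors 14 of 31 had a name. Of the 6 platform-named ones 3 passed as lower and 1 as higher, against 85 and 49 of 13513 platform-named probe sets. *NERD* (AT2G16485), which acts in RNA-directed DNA methylation, stood at 4.15, 4.52 and 3.83 with Suc, against 5.34, 5.49 and 5.08 with Xyl (−1.14, standard error 0.19). AT1G20670 was 0.54 lower, and AT5G02570, a histone gene, was 0.49 higher and was also higher than with Glc (0.51). Of 8 from the supplementary list 4 passed as lower, against 43 of the 128 probe sets that the list names. Among the 4, *HUA2*, a regulator of flowering genes, fell by 0.59 on the log2 scale. *GTE4*, a bromodomain protein, fell by 0.56, and *SYD*, a chromatin-remodelling ATPase, by 0.49.

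In the ubiquitin pathway, 15 of 26 listed genes had a name. All 4 platform-named members had lower means and 3 passed as lower, as did 85 of 13513 platform-named probe sets, the largest fall being that of AT5G23110 (−0.68, standard error 0.15). Of 11 from the supplementary list 8 passed as lower, among them *BT5*, AT3G59940 and AT5G22920 of the starvation markers. They included *PRT6* (−0.48), an E3 ligase of the N-degron pathway, *KAK* (−0.52), the HECT ligase UPL3 of trichome development, and *MAX2* (−0.92), the F-box protein of strigolactone signalling. *MAX2* stood at 5.68, 6.28 and 5.93 with Suc and at 6.63, 7.00 and 7.01 with Xyl. Endocytosis and endomembrane trafficking had 18 named members of 27. Of 8 named by the platform 3 passed as lower and 1 as higher, and of 10 from the supplementary list 9 passed as lower, where the bases are 85 of 13513 and 43 of 128 lower. *TPLATE*, of the adaptor complex of clathrin-mediated endocytosis, stood at 6.53, 6.81 and 6.73 with Suc, against 7.01, 7.35 and 7.25 with Xyl (−0.52, standard error 0.09). *BIG* (−0.63), of auxin transport, *GRV2* (−0.46), of endosome formation, and *delta-ADR* (−0.44), the delta subunit of the adaptor complex AP-3, fell with it. The exception was *VPS24.2*, an ESCRT-III subunit, which rose to 3.67, 4.12 and 3.35 with Suc, against 3.35, 3.22 and 2.73 with Xyl (0.61, standard error 0.11). Its levels were low, and the lowest Suc array and the highest Xyl array both stood at 3.35.

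Gene length went with the difference. Over 13367 nuclear genes named by the platform, the median of Suc minus Xyl was 0.04 in the shortest of 10 length classes of equal size (78 to 902 bp) and −0.08 in the longest class (4249 to 26499 bp). Within replicates 1, 2 and 3 the median of the longest class was −0.09, −0.11 and −0.07, and that of the shortest 0.03, 0.05 and 0.05, so the order held in each replicate. In the longest class 2.77% passed as lower and 0.0748% as higher. In the shortest, 0 passed as lower and 0.823% as higher. Of the 73 genes called lower, 37 lay in the longest class. The median length was 4389 bp for all 73, 1294 bp for the 48 called higher and 2122 bp for all 13367. Between Suc and Glc the median of the longest class was −0.02, and between Suc and Fru −0.03. Against the same Xyl arrays the longest class had a median of −0.07 with Fru and −0.07 with Glc. The shortest class had 0.06 with Fru and 0.05 with Glc, so the order was not particular to Suc. Plastid-encoded genes were not part of these classes.

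**Figure D4:**
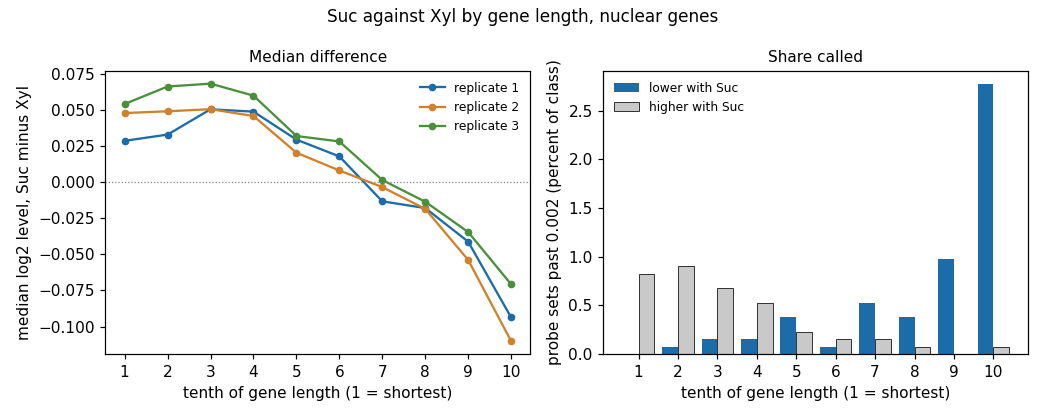
Left, median log2 level with Suc minus Xyl (y axis) in 10 classes of gene length (x axis, 1 is the shortest) for nuclear genes, 1 line per replicate. Right, percent of each class that passed the threshold of 0.002 as lower or higher with Suc; in the longest class 2.77% were lower and 0.0748% higher.

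Of the 65 rises, 49 were named by the platform, and none reached a size of 1. AT4G17670 had the largest, with 7.87, 6.86 and 7.50 with Suc, against 6.95, 6.30 and 6.24 with Xyl (0.91, standard error 0.21). *CML23*, a calmodulin-like calcium sensor, stood at 5.62, 5.73 and 7.20 with Suc and at 4.95, 4.79 and 6.18 with Xyl (0.88, standard error 0.16). Both overlapped between the groups, since the replicates differed in level under both sugars. Of all the rises, 17 had arrays that did not overlap, and of the 177 falls 92 (2.95% of all probe sets had every Suc array above every Xyl array, and 3.26% below). AT3G15420 was one of the 17, with 5.39, 5.27 and 5.59 with Suc and 4.48, 4.70 and 4.77 with Xyl (0.76, standard error 0.17). AT3G25400 stood at 5.63, 5.60 and 5.68 with Suc and at 5.11, 4.99 and 5.21 with Xyl (0.53, standard error 0.11), without overlap as well.

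*FHL*, which carries phytochrome A into the nucleus, rose by 0.73 (standard error 0.19), and *SMAP2*, a small acidic protein named by the supplementary list, by 0.62. AT4G27654, of the list of early stress genes, rose by 0.82 (standard error 0.16). The remaining 7 of the 15 largest rises were AT5G26731, AT4G01897, AT1G72920, AT2G45860, AT2G24970, AT1G61450 and AT5G59845 (0.60 to 0.73). Chosen after their values were seen, *RALFL33* and *RALFL24*, peptides of the RALF family that alkalinise the wall, rose by 0.51 and 0.52. In the same way *ARR15*, a type-A response regulator that dampens cytokinin signalling, stood at 3.44, 3.70 and 4.59 with Suc, against 3.22, 3.25 and 3.79 with Xyl (0.49, standard error 0.12). *BBX31*, a B-box protein, rose by 0.58, the kinase gene *MAPKKK19* by 0.52 and *HGPT*, of purine salvage, by 0.45.

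**Figure D5:**
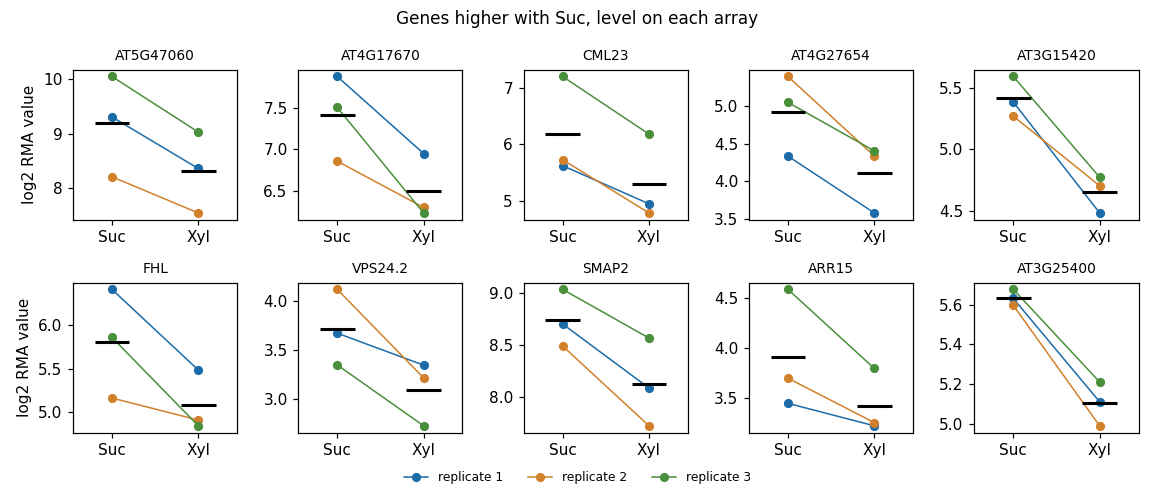
Level (log2 RMA value, y axis) of 10 genes higher with Suc on each Suc array (left) and each Xyl array (right), with lines that join the arrays of 1 replicate and black bars for means of 3 arrays. Each line falls towards Xyl, while the replicates differ in level, as in *CML23*, where replicate 3 lies highest with both sugars.

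Few genes that handle Suc itself were named, so a count of 0 is near the share of 1.06% over all probe sets and says little about them. Of 26 genes of Suc cleavage and hexose phosphorylation 3 had a name, and 0 passed (−0.22 to 0.14, *ATSPS4F* of Suc synthesis at 0.14). Of 25 sugar transporters 6 were named and 0 passed, with *TMT1*, a vacuolar transporter, at −0.38 and *SWEET11*, a Suc exporter, at 0.25. For starch, 6 of 39 were named by the platform and 0 passed, among them *PWD*, a starch kinase (−0.24), and *AMY1*, an α-amylase (0.19), so that *BMY3* from the supplementary list was the only call. Anthocyanin synthesis, which Suc induces in seedlings over longer times, had 5 named members and 0 calls, with *DFR* at 0.04 and *UF3GT* at 0.20.

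Neither ribosome biogenesis (15 named of 25) nor the breakdown of branched-chain amino acids (7 of 14) held a gene that passed, and their medians were −0.04 and −0.05. Counts of 0 in lists of this size are near the share of 1.06% over all probe sets and say little about them. *MCCB*, of leucine breakdown, differed by −0.24. In autophagy 1 of 19 named probe sets passed, AT4G30790, also called *ATG11*, a scaffold for selective autophagy (−0.55, standard error 0.10). It is named by the supplementary list, and of the 17 that the platform names 0 passed. The median of the 17 that the platform names was 0.04, and the *ATG8* genes *ATG8B*, *ATG8C* and *ATG8D*, whose proteins coat the autophagosome, stood at 0.22, 0.19 and 0.17.

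Of 12 named probe sets for phosphate starvation genes 0 passed, a count near the share of 1.06% over all probe sets. Of the 4 named by the platform, 3 had higher means with Suc, AT5G20790 and both probe sets of AT3G44510 (0.78 and 0.57), and 1 a lower one (−0.11). AT5G20790 had the largest upward difference of all probe sets tested, with 7.97, 7.48 and 7.69 with Suc and 7.06, 6.23 and 5.99 with Xyl (1.29), but its standard error of 0.39 kept it from passing. *PS2*, a phosphatase, and *MGD2*, a galactolipid synthase, differed by 0.81 and 0.55. Against Fru, in contrast, *MGD2* was lower with Suc and passed (−1.21).

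In the clock list 1 of 3 platform-named genes passed as lower, against 85 of 13513 platform-named probe sets. It was *TIC*, a regulator of the circadian period (−0.39, standard error 0.10), while *GI* and *ELF3* differed by −0.38 and −0.24. Of 21 cell wall genes 7 had a name. Of 2 named by the platform 1 passed as lower, AT5G06700, also called *TRICHOME BIREFRINGENCE* (−0.43). Of 5 from the supplementary list 2 passed as lower, *CSI1*, which ties cellulose synthase to microtubules (−0.48), and *TBL10* (−0.39). The bases are 85 of 13513 and 43 of 128 lower. *XTH30*, a xyloglucan enzyme from the supplementary list, differed by −0.43 without passing. *NRT1:2*, a nitrate transporter that also imports abscisic acid, was the only named member of the nitrate list and fell by 0.56. It is named by the supplementary list, which was chosen on these same samples, so its fall is no independent evidence. *ERF104*, an ethylene response factor that is also named by the supplementary list, stood at 5.19, 5.74 and 5.34 with Suc. With Xyl it stood at 5.64, 6.28 and 6.53 (−0.73, standard error 0.15). AT5G61590, the factor DEWAX of wax synthesis, is named by the platform and was 1.22 lower. *WRKY22* differed by −0.17. None of 7 named qPCR reference genes passed (−0.15 to 0.12), among them *TUB5* (−0.12) and *GAPC2* (−0.07). Other genes of interest to the study that did not pass were *URH1*, a nucleoside hydrolase (−0.31), *MGT10*, a magnesium transporter (−0.20), AT2G22080 (0.32), AT3G49160 (−0.42) and AT3G57540 (0.16).

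The tests of Suc against Fru and Glc use the same 3 Suc arrays as the comparison with Xyl, so the values of genes called against Xyl are a description there. Over all probe sets 133 (0.585%) passed between Suc and Fru and 145 (0.637%) between Suc and Glc. An adjusted p under 0.05 in limma was reached by 0 probe sets between Suc and Fru, where the lowest was 0.221, and by 1 without a name between Suc and Glc (0.0044%). *BT5* differed from Xyl by −1.70 with Suc, −0.60 with Fru and −1.26 with Glc, and *bZIP63* by −0.72, −0.70 and −0.81. For *bZIP63* the difference between Suc and Fru was −0.02 and that between Suc and Glc 0.09, and for *TPS9* they were 0.19 and −0.28. *NERD* and *NRPB1* were lower with Suc than with Glc and passed (−0.86 and −0.45), and *HUA2* was lower than with Fru (−0.36). AT5G61590 passed against Fru as well as Xyl: its means were 5.10 with Suc and 6.32 with Fru (−1.22).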

How the data were processed

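RNA of 12 samples was measured on Affymetrix ATH1 arrays. The authors deposited log2 values, which RMA had background-corrected, quantile-normalized and summarised per probe set. Tools credited in the submitters' processing notes are Affymetrix Expression Console, RMA and limma, without versions. A further table pairs the same deposited log2 values with the authors' own fold changes and p-values, and none of those comparison columns was used. The number of value columns without a sample was 0.

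The values were fitted in limma 3.58.1 (R 4.3.3) over all 12 arrays, with the replicate number as a fixed block (6 residual degrees of freedom) and contrasts of Suc with Xyl, Fru and Glc. The replicate numbers in the sample titles pair the arrays, since deviations from the group means correlated at 0.86, 0.889 and 0.938 between Suc and Xyl arrays of the same number. The methods call the replicates biological. The block takes out the level of each replicate, so the p-values of the fit are set against the spread that remains over the 12 arrays.

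The annotation of the platform gave a single gene for 13513 probe sets and several for 503. A reference table of TAIR10.1 supplied symbols, lengths and chromosomes. The study's supplementary list named 128 more, all 290 of its entries being matched to 1 probe set each by their ratios (tolerance 1e-05). Lists were described by counts. Genes named in the text had an adjusted p under 0.05, were among the 15 largest rises or falls with 1 direction in all replicates, were among up to 6 members of a list with the smallest p, or are named by the study, and other plastid, mitochondrial and regulatory genes were chosen after their values were seen. Members and lists were chosen with earlier results of these data known. Lists of ribosomal and PPR proteins, promoter motifs and sequences were not analysed here. The fit was tested on simulated data. Alternatives were other uses of the block, a fit of 6 arrays, the methods' test, another variance model, weighting of arrays, removal of dim or unspecific probe sets, other scalings and omitted arrays.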

Additional observations from a re-analysis of the deposited data

Results flagged for a closer look

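The poly-A control transcripts, which the comparisons did not use, were higher on the Suc arrays than on the Xyl arrays, 7.21 ± 0.73 with Suc and 6.57 ± 0.84 with Xyl (log2, SD, n = 3 each), a difference of 0.63, and were higher with Suc within all 3 replicates. On the Glc arrays they averaged 7.07, 7.18 and 6.60, and on the Fru arrays 6.88, 7.01 and 7.54. Scaling to these controls was not run, and their part in the results was not tested. The differences between 3′ and 5′ probe sets of actin were 4.13, 4.23 and 4.22 with Suc and 4.34, 4.42 and 4.33 with Xyl. Those of GAPDH were 2.23, 2.40 and 2.55 with Suc and 2.05, 2.36 and 2.51 with Xyl, higher with Suc in each replicate, and those of ubiquitin were 1.60, 1.64 and 1.66 with Suc and 1.64, 1.75 and 1.82 with Xyl, lower in each.

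A probe set without a name responded differently to Suc and Glc. Its level was 10.20, 9.56 and 9.22 with Suc, against 9.17, 8.72 and 8.56 with Glc, a difference of 0.84 with an adjusted p = 0.0317 in limma. Against Xyl it differed by 0.48 with Suc, where it passed the threshold of 0.002, and by −0.36 with Glc.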

How the results depend on the processing

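Over the 242 probe sets that passed, 0 turned direction under any alternative, but many no longer passed. Other uses of the block, the t-tests and the fit of 6 arrays keep the same mean difference, so they could not turn a direction. Nor could leaving out a whole replicate, since all 242 went 1 way in all 3. Of the 63 that the rule for named genes takes from the 242, 29 to 42 still passed when 1 array was left out, 23 to 40 without a whole replicate, 46 with a random block, 10 without the block, 8 in the methods' t-test and 3 in its paired form. Of all 242, 15 still passed without the block, 11 in the methods' t-test and 10 in its paired form, so most of what those tests call are other probe sets, except without the block. The replicate number as a block set the counts. With the block as a fixed term in limma 242 passed, without it 15 did (0 higher, 15 lower, 463 at an unadjusted p under 0.05), and with the block as a random effect 131 did (24 higher, 107 lower). The fit of the 6 arrays alone gave 493 (183 higher, 310 lower), array weights gave 733 (260 higher, 473 lower), the methods' t-test 41 (10 higher, 31 lower) and its paired form 121 (69 lower). Median-centred arrays gave 108 higher. Leaving out arrays or replicates gave 59 to 215 in all, 14 to 103 higher and 45 to 117 lower. An adjusted p under 0.05 was reached by 4 in limma, by 206 in the fit of 6 arrays, by 521 with array weights and by 0 to 2 with arrays left out. It was reached by 0 without the block, with the random block (1644 at an unadjusted p under 0.05), with the methods' t-test (718) and its paired form (2425), after median-centring (2517) and after repeated quantile normalization (2406).

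The 11 plastid-encoded genes that passed, a group and alternatives chosen after seeing the data, were 2 without the block, 30 with 6 arrays, 5 with the paired form, 5 with a trended and robust variance, 21 with array weights, 6 among probe sets above the median level and 4 to 17 with arrays left out. Their median was −0.69 above the median level and −0.28 to −0.41 with arrays left out. The median of the shortest of 10 length classes was 0.067 after median-centring and 0.054 within replicate 3, and that of the longest −0.055 after median-centring and −0.11 within replicate 2. The causes were not tested. With 3 arrays per sugar, probe sets near background carry little signal, and 8602 probe sets had no name.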
